A study of Homo sapiens with 4 samples.

Results

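The heat shock protein genes described here are HSPA1A, HSPA1B, HSPA8, HSPH1, HSP90AA1, HSP90AB1, DNAJB1, HSPB1, HSPD1 and HSPE1. They were taken by symbol, with no threshold on their values, as 10 of the 60048 genes in the deposited table, and all 10 passed the filter on low values, which left 39464 genes to test. EU-seq was used to measure nascent RNA: cells take up the uridine analogue 5-ethynyl uridine (EU) and the RNA made meanwhile is captured and sequenced. The cells were HCT116, a human colorectal carcinoma line, of genotype RAD21-mAC, so that RAD21, a core subunit of the cohesin ring, carries a degron tag and is degraded when auxin is added. Both groups carried this tag and both took up EU (0.5 mM, 20 min). Control cells were given DMSO (2 libraries), and auxin cells were given indole-3-acetic acid (0.5 mM, 3 h, 2 libraries). There were no untagged cells given auxin, so an effect of auxin itself and an effect of RAD21 loss cannot be told apart. The sources used here do not say whether the tagged line is 1 clone or whether replicates came from separate cultures, so p-values measure the spread between these libraries, which may be technical. The series title asks about cohesin in polymerase pausing and elongation.

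Heat shock proteins are molecular chaperones, which hold, fold or unfold other proteins. HSP70 proteins take up exposed stretches of a client with the help of J-domain partners, HSP90 proteins act on later folding stages of kinases and receptors, small heat shock proteins hold unfolded clients, and the mitochondrial chaperonin folds imported proteins inside a closed chamber. Stress frees the transcription factor HSF1 from chaperones, and HSF1 then binds heat shock elements, which are inverted repeats of the short unit GAA spaced by a pair of bases. The fly Hsp70 gene is a classic example of promoter-proximal pausing, in which polymerase halts just after the start and is released on stress. The labels record no heat shock, and a gene-wide signal does not separate paused from elongating polymerase.

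The table gives 1 scaled signal per gene and library over the whole gene span, introns included. Library totals ran from 61135244 to 93113007, the values were not read counts, and the depth in reads is unknown, so no counting interval is given. Libraries were brought to a common scale with factors from 0.814 to 1.21, a step that removes any change in total nascent RNA. All 10 epithelial markers were present, and their summed scaled signal was 64376 and 71119 in control and 64349.6 and 65738 in auxin. In this list 3 log2 fold changes were positive and 7 negative and none passed the test; the adhesion gene CDH1 had the smallest p (log2 fold change 0.55, limma adjusted p = 0.0599, and 0.0394 with scaling by library total alone). The 10 markers of immune, endothelial and fibroblast cells summed to 923 and 1127 in control and 1305 and 1504 in auxin. Most of this was COL1A1 (log2 fold change 0.54, limma adjusted p = 0.332), 8 of the 10 were tested, all 8 had positive log2 fold changes and none passed the test; COL1A2 and CD3E were near 0, and the part of these markers in the results below was not tested. Since a degron acts on protein, RNA values do not check the group labels.

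The sequence upstream of these genes is shown first, because it holds the heat shock elements for which these genes are known. RefSeq windows on GRCh38.p14, each from 250 bases before to 50 bases after an annotated start, matched all 10 genes, some with several starts, giving 16 windows. HSPA1A and HSPA1B, neighbours on chromosome 6 that encode nearly the same protein, are shown over the 250 bases upstream of each start (chr6:31815293-31815542 and chr6:31827488-31827737, plus strand). Capitals mark a heat shock dimer, GAANNTTC, and the TATA box core, TATAAA.
HSPA1A: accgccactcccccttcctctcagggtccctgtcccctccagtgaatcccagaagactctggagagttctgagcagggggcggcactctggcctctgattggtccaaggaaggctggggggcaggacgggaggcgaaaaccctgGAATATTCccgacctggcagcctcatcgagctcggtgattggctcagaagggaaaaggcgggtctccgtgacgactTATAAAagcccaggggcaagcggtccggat
HSPA1B: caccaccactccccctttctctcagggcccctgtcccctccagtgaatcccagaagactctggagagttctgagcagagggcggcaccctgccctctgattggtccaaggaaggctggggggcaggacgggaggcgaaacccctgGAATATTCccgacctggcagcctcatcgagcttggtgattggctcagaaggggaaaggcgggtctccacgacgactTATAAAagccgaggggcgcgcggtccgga
Aligned to each other, these stretches were identical at 235 positions (93.6% of the aligned columns), whereas HSPA1A and HSPA8 were identical at 49.3%.

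The stretches holding a heat shock element upstream of the other genes are shown on the strand of the gene, with capitals marking the dimer or trimer matched. A trimer is a run of 3 alternating units, GAA, TTC, GAA or TTC, GAA, TTC, each spaced by 2 bases of any kind, and contains overlapping dimers.
HSPA8 distal (chr11:123062345-123062374, minus): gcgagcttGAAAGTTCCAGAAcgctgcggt
HSPA8 proximal (chr11:123062170-123062199, minus): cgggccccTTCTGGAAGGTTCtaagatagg
HSP90AA1 (chr14:102087102-102087140, minus): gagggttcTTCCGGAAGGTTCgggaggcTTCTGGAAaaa
HSP90AB1 distal (chr6:44247770-44247799, plus): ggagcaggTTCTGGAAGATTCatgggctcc
HSP90AB1 proximal (chr6:44247823-44247852, plus): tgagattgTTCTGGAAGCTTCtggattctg
DNAJB1 (chr19:14518433-14518482, minus): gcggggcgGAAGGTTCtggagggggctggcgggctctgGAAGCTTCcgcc
HSPB1 (chr7:76302483-76302512, plus): taacgagaGAAGGTTCcagatgagggctga
HSPD1 (chr2:197500061-197500090, minus): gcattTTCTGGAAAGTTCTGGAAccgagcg
For HSP90AA1, HSP90AB1, DNAJB1 and HSPD1 the matched window belongs to an annotated start other than the outermost one, and the stretch lies inside the gene's span in the table, as does the proximal one of HSPA8.

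HSPD1 and HSPE1 are on opposite strands of chromosome 2. The outermost RefSeq start of HSPD1 lies 105 bases from the start of HSPE1. The 104 bases between these starts are shown on the plus strand because they border both genes (chr2:197500275-197500378). Another HSPD1 start lies at 197499840. The HSPD1 trimer shown above lies between that start and the HSPE1 start, outside the HSPE1 window.
HSPE1 to HSPD1: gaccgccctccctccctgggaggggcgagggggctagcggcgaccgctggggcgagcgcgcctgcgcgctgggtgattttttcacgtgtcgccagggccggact
Counting matches on both strands, a heat shock dimer (GAANNTTC or TTCNNGAA) was present in 8 of the 10 genes and in 9 of their 16 windows, against 13.5% of all 35116 RefSeq windows. The genes without one in these windows were HSPH1 and HSPE1. A trimer was present in HSPA8, HSP90AA1, HSP90AB1 and HSPD1, in 4 of 16 windows against 0.49% of all windows. The TATA box core was found in HSPA1A and HSPA1B, in 2 of 16 windows against 11.5% of all windows. CCAAT was found in 5 genes, in 7 of 16 windows against 34.6%. The GC box core GGGCGG was found in 9 genes, in 15 of 16 windows against 45.0%. The window of the outermost HSPD1 start and the HSPE1 window share 204 bases, so the same GC box match is counted in both. These are letter matches and not measured binding.

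**Figure D1:**
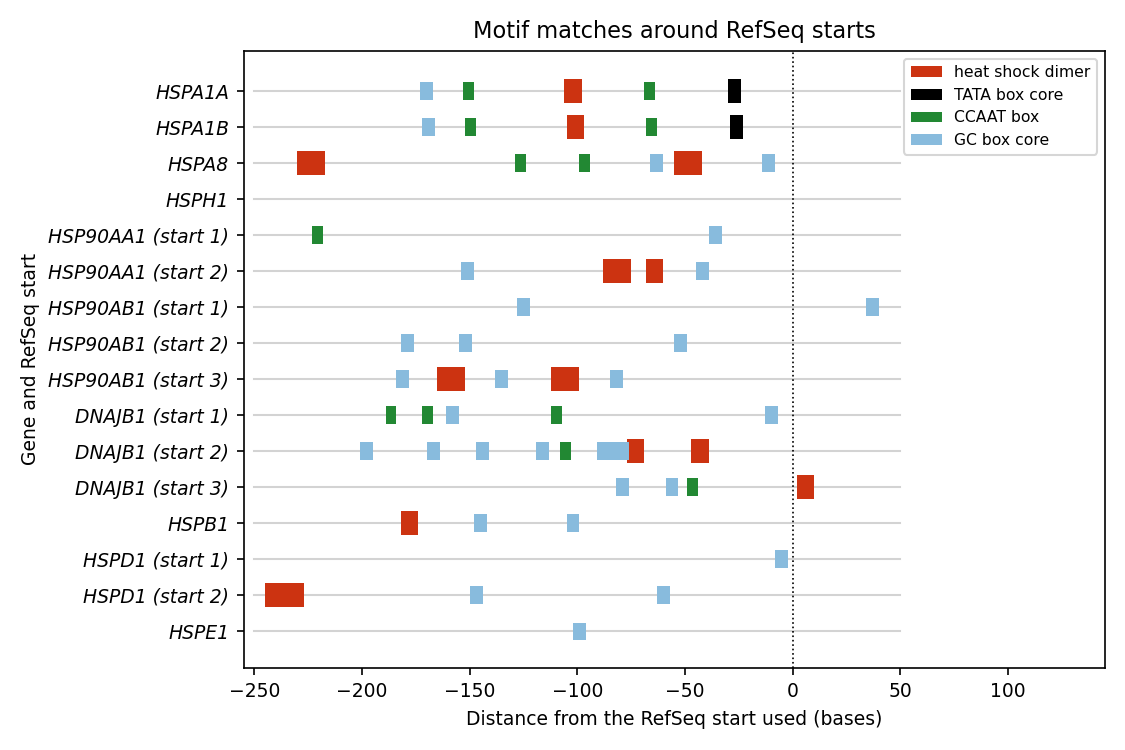
Motif matches in the 16 RefSeq windows of the 10 genes, by distance in bases from each annotated start (dotted line); bars mark heat shock dimers, TATA box cores, CCAAT boxes and GC box cores. Heat shock dimers appear in 9 of the 16 windows, and TATA box cores in HSPA1A and HSPA1B.

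The first comparison asked whether the nascent signal of the heat shock protein genes differed between auxin and control libraries. None of the 10 genes passed the test: 0 were called at a limma adjusted p under 0.05, against 0.72% of all genes tested (0.329% higher and 0.39% lower), and 0 had an unadjusted p under 0.05, against 10.2%. The log2 fold changes, on the log2(scaled signal + 1) scale, lay between -0.29 (HSPE1) and 0.22 (HSPA1A), with 3 positive and 7 negative. Their median was -0.033, against 0.011 over all genes tested, and the median absolute value was 0.085, against 0.20. The standard errors were 0.12 to 0.20, and the 95% intervals ran from -0.64 at the lowest to 0.56 at the highest, so changes of 2-fold in either direction lay outside all 10 intervals. A 1.5-fold rise lay outside all of them, and a 1.5-fold fall lay inside that of HSPE1 alone. These limits hold for the rescaled libraries only. On the deposited scale, without that step, the standard errors were larger, from 0.40 (HSPB1) to 0.42 (HSPD1), and the intervals correspondingly wider. In HSPA1A and HSPA1B both auxin libraries lay above both control libraries (18.8% of all genes tested), in HSPD1 and HSPE1 both lay below (19.4%), and in the other 6 the groups overlapped. The sign of HSPA8, HSPH1, HSP90AA1, HSP90AB1 and HSPB1 turned when single libraries were left out. The estimates of the others shifted without turning, over 0.11 to 0.32 for HSPA1A and for HSPA1B, -0.36 to -0.13 for HSPD1, -0.40 to -0.17 for HSPE1 and -0.16 to -0.034 for DNAJB1. The groups did not overlap in 4 of the 10 genes, against 38.2% of all genes tested.

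**Figure D2:**
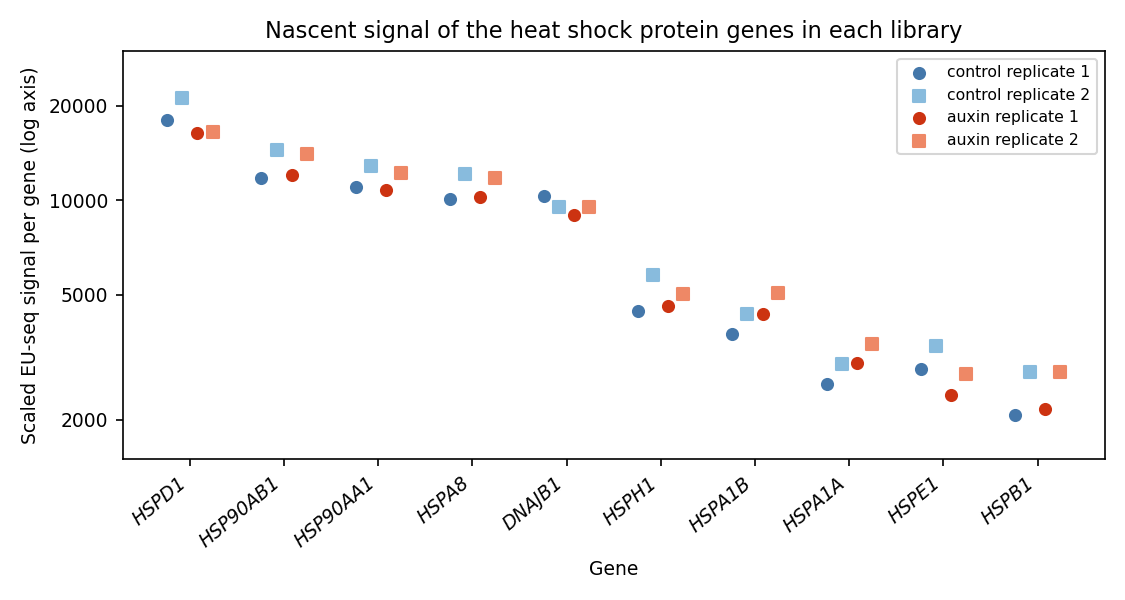
Scaled EU-seq signal (log axis) of each gene in the 4 libraries, with control in blue, auxin in red, replicate 1 as circles and replicate 2 as squares. HSPD1 is highest, from 16399.6 to 21172, HSPB1 lowest in control replicate 1 at 2063, and differences between genes far exceed those between groups.

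**Figure D3:**
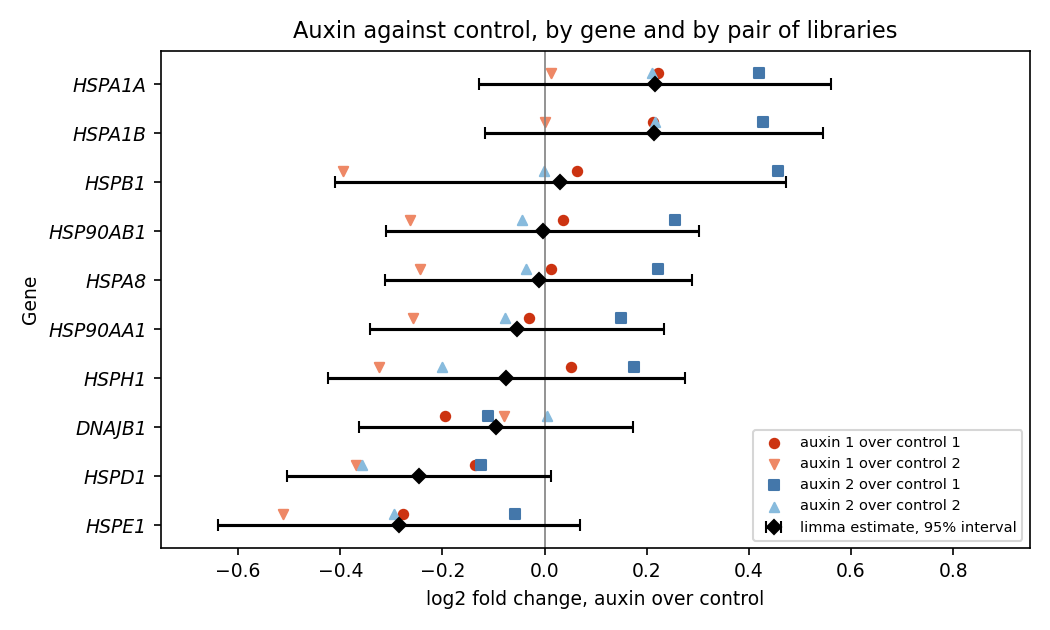
Log2 fold change of auxin over control for each gene, with the limma estimate and its 95% interval (black) and the 4 ratios of a single auxin to a single control library (coloured). All 10 intervals include 0, and HSPD1 and HSPE1 lie lowest and HSPA1A and HSPA1B highest.

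HSPA1A and HSPA1B encode the stress-inducible HSP70 proteins and consist of 1 exon each. HSPA1A (ENSG00000204389, chromosome 6, 31815543 to 31817942, plus strand) had a scaled signal of 2604 and 3011 in control and 3039 and 3482 in auxin. Both auxin libraries were above both controls, the closest by a small margin. The means were 2807 ± 287 and 3261 ± 313 (SD, n = 2 each), and the estimated log2 fold change was 0.22 (SE 0.15, 95% interval -0.13 to 0.56, limma adjusted p = 0.755). HSPA1B (ENSG00000204388, 31827738 to 31830254, plus strand) had 3756 and 4349 in control and 4352 and 5051 in auxin. Its lower auxin library and its higher control library were all but equal. The log2 fold change was 0.21 (SE 0.15, limma adjusted p = 0.742).

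Reads from these near-identical copies may be assigned to either, so each single value is uncertain. The ratio of HSPA1A to HSPA1B was nearly constant, at 0.693, 0.692, 0.698 and 0.689 in the 4 libraries. Summed into 1 gene before the fit, the pair had 6359.91 and 7359.94 in control and 7391 and 8534 in auxin, a log2 fold change of 0.22 (SE 0.14, 95% interval -0.092 to 0.52, limma adjusted p = 0.708). HSPA1L, a testis-enriched HSP70 gene that lies 0.259 kb from HSPA1A, had 134 and 106 in control and 168 and 138 in auxin (log2 fold change 0.35, limma adjusted p = 0.778). The lncRNA AL671762.1 overlaps 1421 bases of HSPA1B on the same strand and had a log2 fold change of 0.066 (limma adjusted p = 0.954).

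HSPA8, the constitutive HSP70 protein that also strips clathrin from vesicles, showed no such separation. HSPA8 (ENSG00000109971, chromosome 11, 123057489 to 123062335, minus strand) had 10126 and 12102 in control and 10222 and 11805 in auxin. Replicate 2 was the higher library in each group, by more than the difference between the groups. The means were 11114 ± 1397 and 11013 ± 1119.77, a log2 fold change of -0.011 (SE 0.14, 95% interval -0.31 to 0.29, limma adjusted p = 0.995). Its span contains the small nucleolar RNA genes SNORD14C, SNORD14D and SNORD14E, which guide chemical marks on ribosomal RNA and are cut from introns. Their log2 fold changes were -0.096, -0.13 and -0.33, and none passed the test (limma adjusted p from 0.793 to 0.962).

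HSPH1 encodes HSP110, a relative of HSP70 that exchanges its nucleotide. HSPH1 (ENSG00000120694, chromosome 13, 31134974 to 31162388, minus strand) had 4441 and 5766 in control and 4604.5 and 5015 in auxin. Both auxin libraries lay between the controls. The log2 fold change was -0.075 (SE 0.16, 95% interval -0.42 to 0.28, limma adjusted p = 0.961).

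HSP90AA1 and HSP90AB1 encode the stress-inducible and the constitutive cytosolic HSP90. HSP90AA1 (ENSG00000080824, chromosome 14, 102081049 to 102139686, minus strand) had 11035 and 12921.5 in control and 10805 and 12244 in auxin. The groups overlapped, and the log2 fold change was -0.054 (SE 0.13, 95% interval -0.34 to 0.23, limma adjusted p = 0.968). HSP90AB1 (ENSG00000096384, chromosome 6, 44246166 to 44253888, plus strand) had 11772 and 14489 in control and 12071 and 14054 in auxin. Here too the auxin libraries lay between the controls, and the log2 fold change was -0.0038 (SE 0.14, 95% interval -0.31 to 0.30, limma adjusted p = 0.997). The ratio of HSP90AA1 to HSP90AB1 was 0.937 and 0.892 in control and 0.895 and 0.871 in auxin, ranges that overlap.

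DNAJB1 encodes HSP40, the J-domain partner that loads clients onto HSP70 and helps to switch HSF1 off. DNAJB1 (ENSG00000132002, chromosome 19, 14514787 to 14560262, minus strand) had 10299 and 9505 in control and 8994 and 9541 in auxin. It was the only one of the 10 genes whose control replicate 1 was above control replicate 2. The log2 fold change was -0.095 (SE 0.12, 95% interval -0.36 to 0.17, limma adjusted p = 0.911). TECR, an enzyme gene of fatty acid elongation on the opposite strand, shares 30669 bases with this span and had 6414 and 4435 in control and 4380.0 and 4239.75 in auxin (log2 fold change -0.31, limma adjusted p = 0.646). MIR639, inside the same span, had a log2 fold change of -0.31 (limma adjusted p = 0.878). The table appears not to separate strands. Among 4146 pairs, no gene with a signal of 50 or more exceeded by over 1% an opposite-strand gene that contains it. Signal of TECR may therefore enter the value of DNAJB1. In TECR too, control replicate 1 was above control replicate 2. How far TECR sets the sign and the replicate order of DNAJB1 was not tested.

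HSPB1 encodes HSP27, a small heat shock protein that also binds actin. HSPB1 (ENSG00000106211, chromosome 7, 76302673 to 76304292, plus strand) had 2063 and 2834 in control and 2157 and 2831 in auxin. The values paired by replicate number more closely than by group. The log2 fold change was 0.031 (SE 0.20, 95% interval -0.41 to 0.47, limma adjusted p = 0.990175), with the widest interval of the 10 genes.

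HSPD1 and HSPE1 encode HSP60 and HSP10, the barrel and the lid of the mitochondrial chaperonin. HSPD1 (ENSG00000144381, chromosome 2, 197486586 to 197516737, minus strand) had 18011 and 21172 in control and 16399.6 and 16533 in auxin. Both auxin libraries lay below both controls and close to each other. The means were 19591 ± 2235 and 16466 ± 94.3 (SD, n = 2 each), and the estimated log2 fold change was -0.25 (SE 0.12, 95% interval -0.51 to 0.013, unadjusted p = 0.0605, limma adjusted p = 0.525). HSPE1 (ENSG00000115541, 197500379 to 197503449, plus strand) had 2911 and 3427 in control and 2402 and 2796 in auxin. Its auxin libraries were also below both controls, with a log2 fold change of -0.29 (SE 0.16, 95% interval -0.64 to 0.069, limma adjusted p = 0.629).

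HSPE1 lies wholly inside the span given for HSPD1, whose 30152 bases exceed the 13691 of the RefSeq gene, so the pair are not independent measurements. With the HSPE1 signal taken off, HSPD1 had 15099.6 and 17745 in control and 13998 and 13738 in auxin, a log2 difference of -0.24. HSPE1-MOB4, a readthrough gene that overlaps both, had 10505 and 10096 in control and 9356 and 9327 in auxin (log2 fold change -0.14, limma adjusted p = 0.812). MOB4, which encodes a subunit of a phosphatase complex and overlaps the far end of the HSPD1 span, had a log2 fold change of -0.0011 (limma adjusted p = 0.999). COQ10B, the nearest gene on the other side and a coenzyme Q binding protein gene, had 2783 and 2696 in control and 3177 and 3652 in auxin (log2 fold change 0.31, limma adjusted p = 0.522).

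The spread between replicates had a direction that most of the family shared. Replicate 2 was above replicate 1 in both groups in 9 of the 10 genes, against 31.4% of all genes tested. The median log2 ratio of replicate 2 to replicate 1 was 0.23 in control and 0.20 in auxin for the 10 genes, against -0.010 and 0.0056 over all genes. Both replicate differences exceeded the median difference between the groups. Among protein-coding genes shorter than 10 kb and of mean signal 50 or more, the corresponding medians were -0.019 and -0.099. Summed over the 10 genes, the scaled signal was 77018 and 89577 in control and 75045 and 83353 in auxin. Whether culture state or library preparation underlies this shared difference was not tested.

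**Figure D4:**
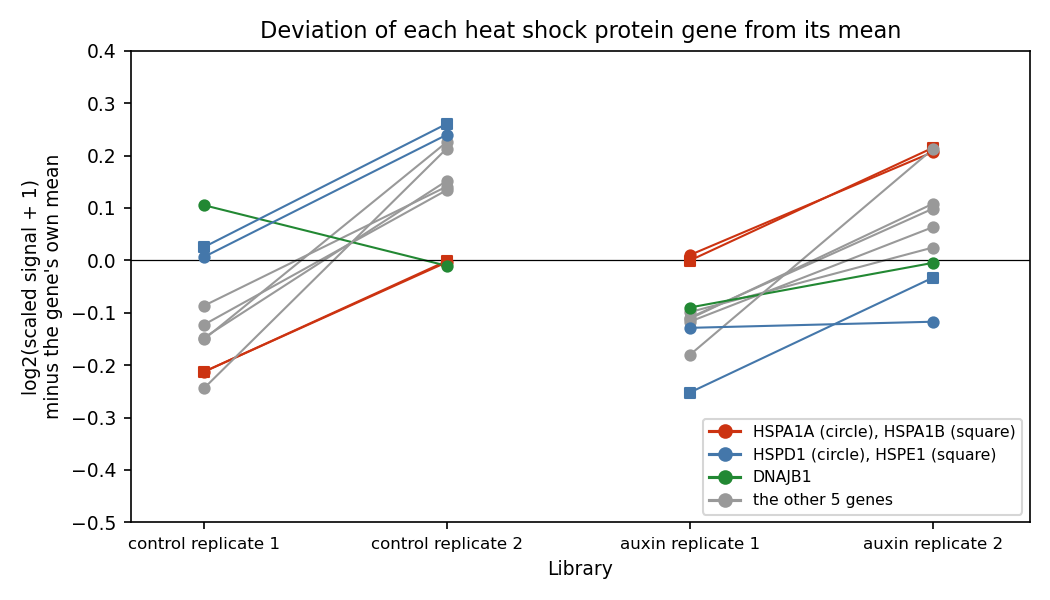
Log2 scaled signal of each gene minus the gene's own mean, by library, with lines joining replicates of a group. Lines slope up from replicate 1 to replicate 2 in 9 of 10 genes in both groups (control replicate 2 of DNAJB1, green, is the lower one), while HSPA1A and HSPA1B (red) sit higher, and HSPD1 and HSPE1 (blue) lower, in auxin.

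Ratios between genes of the same library do not depend on how libraries are scaled, and were formed after the values above had been seen, so they are given as a description without a test (with 2 libraries a group, the smallest two-sided exact permutation p is 0.333 over 3 splits). The groups did not overlap in 24 of the 45 pairs of genes, and the share over pairs of other genes was not computed. Of the 45 pairs, HSPA1A with HSPE1 had the largest log2 difference in ratio, 0.50. HSPA1A was 0.895 and 0.878 times HSPE1 in control and 1.27 and 1.25 times in auxin, so that the order of these genes in the libraries turned. HSPA1A relative to HSPD1 was 0.145 and 0.142 in control and 0.185 and 0.211 in auxin. Relative to HSPA8, HSPA1A was 0.257 and 0.249 in control and 0.297 and 0.295 in auxin, and HSPE1 was 0.288 and 0.283 in control and 0.235 and 0.237 in auxin. HSPE1 relative to HSPD1 was 0.162 in both controls and 0.146 and 0.169 in auxin, with no separation.

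Per kilobase of gene span, the mean scaled signal over the 4 libraries placed HSPA8 first at 2283, followed by HSPA1B at 1739, HSP90AB1 at 1696, HSPB1 at 1526 and HSPA1A at 1264. HSPE1 followed at 939 and HSPD1 at 598, and the long spans of DNAJB1 (211), HSP90AA1 (200.4) and HSPH1 (181) came last. All exceeded the median of tested protein-coding genes, 63.3 per kilobase. The library ranges of HSPA1B (1492 to 2007), HSP90AB1 (1524 to 1876) and HSPB1 (1274 to 1749.6) overlapped, as did those of DNAJB1, HSP90AA1 and HSPH1. The range of HSPA1A (1085 to 1451) overlapped those of HSPB1 and of HSPE1 (782 to 1116). The order among genes whose ranges overlap is not settled. The range of HSPD1, 544 to 702, overlapped none of the others. Annotated spans set part of this order, since that of HSP90AA1 covers 58638 bases and starts 52.642 kb upstream of the start with the heat shock trimer.

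Other chaperone and heat shock response genes were then examined in textbook lists, to show whether the wider pathway differed. Of 124 such genes, some of them in more than 1 list, 119 were tested, and none passed the test (limma, 0.72% of all genes); 19 had an unadjusted p under 0.05 (10 higher and 9 lower), against 10.2% of all genes. Log2 fold changes were positive in 59 and negative in 60, with a median of -0.013. The HSF genes and the HSF1-binding protein gene gave 2 positive and 3 negative values of 5; HSF1 itself had a log2 fold change of -0.060 (limma adjusted p = 0.957). HSF2, a partner of HSF1, had the smallest p of that list, with 1839 and 2108 in control and 1639 and 1308 in auxin (log2 fold change -0.43, limma adjusted p = 0.429719).

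Among the 11 tested of 12 other HSP70 family genes, 5 values were positive and 6 negative (median -0.029). HSPA14, a ribosome-associated HSP70, had the smallest p, with 3946 and 4130.1 in control and 3254 and 3084 in auxin (log2 fold change -0.35, limma adjusted p = 0.402). HSPA6, an HSP70 gene known to be switched on only by strong stress, was near 0, with scaled signals of 0, 3.05, 0 and 5.61, and was not tested. Both other HSP90 family genes had negative values, and the mitochondrial TRAP1 had 24958 and 21463 in control and 18408 and 16789.9 in auxin (log2 fold change -0.40, limma adjusted p = 0.209).

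All 9 subunits of the cytosolic chaperonin, which folds actin and tubulin, had negative log2 fold changes, with a median of -0.16. In 6 of them both auxin libraries lay below both controls (19.4% of all genes). None passed the test, 0 also had an unadjusted p under 0.05, and without control replicate 2 only 7 of the 9 were negative. CCT3 had the smallest p, with 9094 and 8843 in control and 7767 and 7739 in auxin (log2 fold change -0.21, limma adjusted p = 0.638). Of the J-domain proteins 45 of 46 were tested, with 24 positive and 21 negative values (median 0.051).

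Of the 32 co-chaperones and other HSF1 targets, 13 had positive and 19 negative values (median -0.052). FKBP5, an HSP90 co-chaperone of steroid receptors, had 6813 and 8526 in control and 4529.5 and 5670.5 in auxin (log2 fold change -0.59, limma adjusted p = 0.176). It alone passed the test when auxin replicate 2 was left out (-0.75, limma adjusted p = 0.0264), a setting under which 1.37% of all genes were called. In the 19 genes of ER chaperones and the unfolded protein response, which serve another compartment, 16 values were positive (median 0.071), and this fell to 10 without auxin replicate 1. HERPUD1, a component of ER-associated degradation, had 2348 and 1952 in control and 3168 and 3317 in auxin (log2 fold change 0.60, limma adjusted p = 0.155). Of the other small heat shock proteins 6 of 9 were tested, with 4 positive values; HSPB7, a gene at low signal here, had 26.4 and 10.2 in control and 41.1 and 40.4 in auxin (log2 fold change 1.25, limma adjusted p = 0.421).

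**Figure D5:**
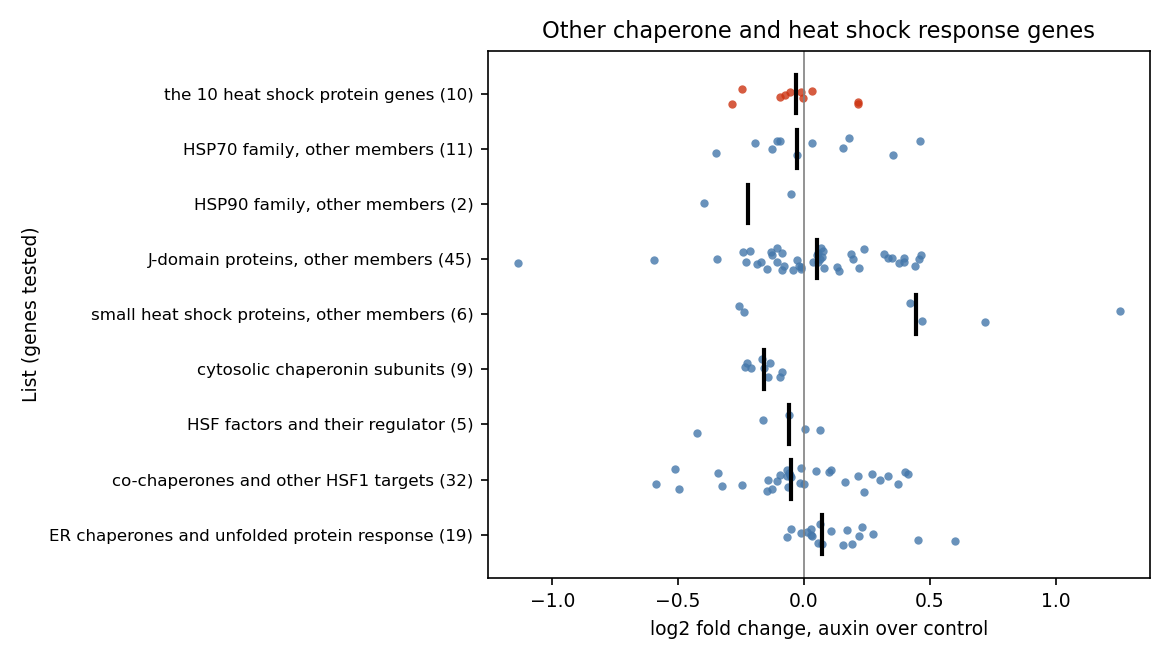
Log2 fold change of auxin over control for each tested gene (points) of 9 lists, with the median of each list as a black bar and the number tested in brackets; the 10 heat shock protein genes are in red. No point passed the test, and the medians farthest from 0 are those of the small heat shock proteins (0.45, 6 tested genes), the other HSP90 genes (-0.22, 2 genes) and the cytosolic chaperonin (-0.16, 9 genes).

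The nearest or overlapping genes were compared with the heat shock genes they flank. Of 24 distinct genes besides the 10, HSPA1L included, none passed the test, against 0.72% of all genes tested. Log2 fold changes were positive in 8 and negative in 16. Only 1 had an unadjusted p under 0.05, against 10.2% of all genes tested. This was SLC29A1, a nucleoside transporter gene 12.041 kb from HSP90AB1, with 5929 and 6166 in control and 4122 and 4059 in auxin (log2 fold change -0.56, limma adjusted p = 0.104). HSP90AB1 itself differed by -0.0038.

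The genes whose pattern over the 4 libraries was most like the mean pattern of the heat shock genes were found by the Euclidean distance between centred log2 values, among 15984 protein-coding genes of mean signal 50 or more. They were SAP18 (0.013), ATP6V1G2-DDX39B (0.014), DDX39B (0.018), TRDMT1 (0.021) and CHD2 (0.024), against a median distance of 0.40 over all genes searched. ATP6V1G2-DDX39B and DDX39B had nearly the same signal, 9849 and 9616 in control replicate 1 and 11289 and 11025 in auxin replicate 2. They may not be independent measurements. Among the heat shock genes, HSP90AA1 (0.025) and HSPA8 (0.028) lay closest to their own mean pattern and DNAJB1 (0.27) farthest. With 4 libraries such likeness describes these libraries, and it follows the replicate difference described above.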

How the data were processed

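The authors deposited 1 table of scaled signal per gene for 2 control and 2 auxin libraries. Per the submitters' processing notes, Trimmomatic 0.39, Bowtie2 2.4.5 and deepTools 3.5.1 were used with the builds hg38 and dm6 (fly spike RNA); the counting and scaling steps are not given in the sources used here. A misspelt column was taken as control replicate 2 from its name. Low values were whole multiples of 1 step per library, worth 0.847, 1.04, 0.7275 and 1.36 (100% up to 20 steps, tolerance 0.05), which were not treated as reads because genes over 10 kb almost never held 1 step. Table starts count from 0 and are printed 1 higher.

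Kept genes reached the equivalent of 10 in 2 or more libraries and summed to 15 or more. Library factors were trimmed means of M-values (30% and 5% trimmed). The log2 of the scaled signal + 1 was fitted with limma 3.58.1 (lmFit, eBayes with trend; R 4.3.3), auxin against control, with Benjamini-Hochberg adjustment over all 39464 genes at a threshold of 0.05. The procedure was tested on simulated data. Motif searches and tables used pandas 2.3.3 in Python 3.11.15, and figures matplotlib 3.10.9.

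The genes and lists were chosen with earlier results of these data known. Named were all 10 genes, their overlapping and nearest neighbours, each list's called genes and its smallest-p gene, and the 5 most alike (the smallest-p gene of the J-domain list is not reported here); a few others, such as HSPA6, HSF1 and COL1A2, were named after their values were seen. Alternatives covered scaling, pseudocount, filter, gene span, summed copies, replicate block and leaving out each library.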

Additional observations from a re-analysis of the deposited data

How the results depend on the processing

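None of the 10 genes was called under any setting tried, and the lowest limma adjusted p was 0.0867. Among other scalings, pseudocounts, filters, the block, the span trend and summed copies, 96 of 98 values kept their direction and side of the threshold; with scaling by library total alone, HSPA8 turned to 0.022 and HSP90AB1 to 0.030.

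Leaving out 1 library moved the median log2 fold change over the range -0.16 to 0.11, being -0.16 and 0.11 without control replicates 1 and 2, and 0.061 and -0.14 without auxin replicates 1 and 2. Of the 40 single-gene values, 9 turned sign, with HSPA8 at 0.11, HSPH1 at 0.11, HSP90AA1 at 0.055 and HSP90AB1 at 0.14 without control replicate 2. Without auxin replicate 1, HSPA8 was 0.089, HSP90AA1 0.032 and HSP90AB1 0.10. HSPB1 ranged from -0.19 (control replicate 1 left out) to 0.25 and was -0.17 with auxin replicate 2 left out. The lowest value was -0.26 for HSPH1 and -0.15 for HSP90AB1, both without control replicate 1. HSPA1A, HSPA1B, HSPD1, HSPE1 and DNAJB1 kept their signs, though signal of TECR may enter the value of DNAJB1. Their values nearest 0 were 0.11 for HSPA1A and -0.034 for DNAJB1 without control replicate 1, -0.13 for HSPD1 and -0.17 for HSPE1 without control replicate 2, and 0.11 for HSPA1B without auxin replicate 2. Among other chaperone genes, FKBP5 was -0.75 without auxin replicate 2. The cause was not tested.

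The labels do not tie a replicate number to a batch, and 2 pairs cannot settle it. The differences between replicates correlated across genes between the groups (r 0.231, or 0.462 for genes of mean signal 50 or more). With the replicate block, 22 other chaperone genes were called (12 higher, 10 lower), against 10.8% of all genes, among them FKBP5 (limma adjusted p = 8.59e-07), HERPUD1 (7.93e-06), TRAP1 (8.80e-04), BAG3 (8.45e-04), HSF2 (0.00744) and HSPA14 (0.0184); of the markers, CDH1 (9.34e-07), KRT19 (0.00418), CLDN3 (0.0474) and COL1A1 (0.00285) were called. None of the 10 heat shock genes was (HSPD1 0.0867, HSPE1 0.0899, as limma adjusted p). The block left 1 residual degree of freedom, and each gene's variance was taken wholly from the trend over all genes. The p-values with the block therefore do not measure a gene's own spread between libraries. The depth in reads is unknown, so what depth limits could not be computed.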

Other observations

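The table also holds 74 pseudogenes named after these heat shock genes, most of them processed copies scattered over the genome. Of these 54 were tested and none passed the limma test, against 0.72% of all genes tested. There were 0 at an unadjusted p under 0.05, against 10.2%. Log2 fold changes were positive in 30 and negative in 24, with a median of 0.019. Their summed scaled signal was 11210.0 and 15740.5 in control and 12535 and 14925 in auxin. The 26 copies of HSPE1 held 46.0% as much signal as HSPE1 itself, those of HSPB1 37.2% and of HSPA8 29.3%. The shares were 23.0% for HSP90AB1, 19.2% for HSP90AA1, 14.7% for HSPD1 and 2.04% for DNAJB1. How reads that match both a gene and its copies were assigned is not given in the sources used here. The levels of the parent genes are therefore uncertain, by an amount that these shares do not measure.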
